A study of Mus musculus with 20 samples.

Results

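Open chromatin of Idh1 R132H mutant blood progenitors was compared with that of wild-type (WT) progenitors in 8 of the 20 libraries of the series, 4 per genotype. The libraries were chosen by the genotype and the replicate number in the column names of the count table. ATAC-seq, in which a transposase places sequencing adapters into accessible DNA, had been run on Lin-cKit+Sca1+ (LSK) bone marrow cells, the fraction rich in mouse blood stem cells and early progenitors. Each library pooled 2 C57Bl/6J mice aged 3 to 4 months. The WT mice were +/+;Vav-Cre and the mutant mice were heterozygous Idh1LSL-R132H/+;Vav-Cre, so both groups carried Cre driven from the Vav promoter, which acts in blood cells, and the mutant protein depended on that Cre. Mice labelled Idh2LSL-R140Q/+;Vav-Cre served as a reference, as did those labelled Idh2LSL-R172K/+;Vav-Cre. A further reference, the Tet2-/- mice (Tet2 knockout), has a label that names no Cre, and each of the 3 had 4 libraries. Of 125343 peaks, 123908 passed the filter on low counts and were tested: 8516 on chromosome 1, which carries Idh1, and 115392 on the other chromosomes.

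Idh1 encodes the cytosolic NADP-dependent isocitrate dehydrogenase, which makes 2-oxoglutarate. The R132H enzyme instead converts 2-oxoglutarate to 2-hydroxyglutarate, a metabolite that inhibits 2-oxoglutarate-dependent dioxygenases such as the Tet enzymes, which oxidize 5-methylcytosine, and the Jumonji histone demethylases. D2hgdh encodes the mitochondrial dehydrogenase that removes D-2-hydroxyglutarate. Mutations of IDH1, IDH2 and TET2 recur in human myeloid leukemia, and LSK cells are the stage at which their effects on early blood formation are commonly studied in mice.

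The RefSeq sequences of the 250 bases before 5 start sites (GRCm38.p6, the assembly that mm10 stands for) are given for peaks that the results turn on. In the deposited annotation the Idh1 and Kdm7a peaks are of the intron class and those of D2hgdh, Mpo and Med13l of the promoter class. Idh1 (chr1:65179143-65179392, minus strand) is shown because it carries the mutant allele, and D2hgdh (chr1:93824990-93825239, plus strand) because it lies on the same chromosome and removes the metabolite. Kdm7a (chr6:39206774-39207023, minus strand), a Jumonji demethylase, and Mpo (chr11:87793534-87793783, plus strand), the neutrophil granule enzyme myeloperoxidase, are shown because their peaks passed the test only when the replicate number was a block. Med13l (chr5:118560469-118560718, plus strand), a subunit of the Mediator kinase module, is the only one of the 34 called peaks that reaches into such a window, by 31 bases. Capitals mark matches, read on both strands, to a GATA motif spelled AGATAA, an ETS motif spelled CCGGAA, a RUNX motif spelled TGTGGT and a cAMP response (CRE) motif spelled TGACGT. No letters of one motif overlap those of another in these windows.
Idh1: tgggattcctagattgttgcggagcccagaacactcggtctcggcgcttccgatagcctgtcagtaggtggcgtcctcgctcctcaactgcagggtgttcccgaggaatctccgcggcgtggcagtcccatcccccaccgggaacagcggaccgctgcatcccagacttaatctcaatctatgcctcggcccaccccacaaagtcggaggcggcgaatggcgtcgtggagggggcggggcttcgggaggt
D2hgdh: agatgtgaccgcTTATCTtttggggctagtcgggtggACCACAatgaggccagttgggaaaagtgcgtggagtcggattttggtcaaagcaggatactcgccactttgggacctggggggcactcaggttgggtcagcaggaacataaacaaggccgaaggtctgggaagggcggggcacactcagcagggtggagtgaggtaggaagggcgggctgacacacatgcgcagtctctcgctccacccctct
Kdm7a: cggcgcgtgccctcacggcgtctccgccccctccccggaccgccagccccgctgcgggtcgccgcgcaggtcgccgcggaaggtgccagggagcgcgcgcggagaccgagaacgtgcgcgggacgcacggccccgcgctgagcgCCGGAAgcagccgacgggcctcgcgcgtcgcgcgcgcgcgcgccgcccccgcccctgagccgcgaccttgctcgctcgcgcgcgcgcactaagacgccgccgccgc
Mpo: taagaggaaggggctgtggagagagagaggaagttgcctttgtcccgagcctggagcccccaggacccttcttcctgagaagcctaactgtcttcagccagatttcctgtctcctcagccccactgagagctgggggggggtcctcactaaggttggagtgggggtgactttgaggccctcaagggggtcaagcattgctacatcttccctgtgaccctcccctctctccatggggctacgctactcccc
Med13l: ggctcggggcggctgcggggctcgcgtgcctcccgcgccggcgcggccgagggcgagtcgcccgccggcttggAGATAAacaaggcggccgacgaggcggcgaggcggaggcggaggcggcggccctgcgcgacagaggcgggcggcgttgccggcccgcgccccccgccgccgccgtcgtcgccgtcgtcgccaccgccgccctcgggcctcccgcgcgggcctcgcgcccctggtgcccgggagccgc
Of 32851 RefSeq promoter windows of this length, 9.99% held the GATA letters, 12% the ETS letters, 14% the RUNX letters and 6.47% the CRE letters. The Med13l window held 51 CpG dinucleotides, Kdm7a 56, Idh1 22, D2hgdh 10 and Mpo 2, against a median of 6 over all windows (quartiles 2 and 16). A GATA match stood in Med13l and in D2hgdh, an ETS match in Kdm7a and a RUNX match in D2hgdh, and these letters were not found in the windows of Idh1 and Mpo. The match in the Med13l window lay outside the bases that the called peak covers.

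The libraries held 14.5 to 26.0 M counts (M for mega) in WT and 17.4 to 27.9 M in R132H. The shallowest, WT replicate 3, stood apart on the first principal component of the 8 libraries (25% of the variance). Numbers 1 and 3 of both genotypes had a low level over the Xist gene (3.83 to 4.67 counts per M, CPM) and numbers 2 and 4 a high one (27.6 to 29.9 CPM), so each group held the same mix in this respect. In the Tet2 knockout, numbers 1 and 2 were the low ones (4.34 and 4.43 CPM) and numbers 3 and 4 the high ones (24.4 and 25.7 CPM). Summed promoter-class CPM of the LSK marker list (6 of its 9 genes had such a peak, without Procr, Mecom and Slamf1) lay between 62.5 and 72.0 in WT and between 66.3 and 75 in R132H. Among the lists of other cells, 1 of 4 B cell genes (29.8 to 32.7 against 29.6 to 32.9 CPM), 1 of 4 T and NK cell genes (1.10 to 1.85 against 1.56 to 1.65), 1 of 4 erythroid genes (9.07 to 11.1 against 9.36 to 10.9), 3 of 4 myeloid genes (21.9 to 25.3 against 24.1 to 26.9) and 1 of 4 stromal genes (13.9 to 19.6 against 15.0 to 19.1) had a promoter-class peak, and no promoter-class marker peak was called. In sorted cells measured in bulk, a change in the mix of cells and a change within each cell cannot be told apart.

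In the fit of all 20 libraries with no pairing, few regions differed between the genotypes, and 24 of the 34 that did lay on the chromosome of the mutant allele. With an adjusted p below 0.05 (edgeR quasi-likelihood test, Benjamini-Hochberg over all tested peaks), 34 of 123908 peaks were called (0.0274%), 8 raised (0.00646%) and 26 lowered (0.021%) in R132H. Those on chromosome 1 made up 0.282% of its peaks (6 raised and 18 lowered), against 10 on all other chromosomes (0.00867%, 2 raised and 8 lowered). At all 34 the 4 R132H libraries lay wholly above or below the 4 WT libraries, as they did at 3.38% of all peaks (1.41% with R132H above and 1.96% with R132H below). Without adjustment, 5.07% of all peaks had a p below 0.05, with 6.31% on chromosome 1 and 4.98% elsewhere. For 93.6% of peaks the 95% interval of the fold change lay within 2-fold of no change, from 71.5% in the weakest quintile of peaks to 99.9% in the strongest. With the replicate number as a block in a fit of the 8 libraries, the count rose to 879 of 120882 peaks (0.727%), 107 on chromosome 1 and 772 elsewhere, and all 34 peaks above remained called. DESeq2 with the same block kept 8 of the 24 on chromosome 1 and 3 of the 10 elsewhere. Most calls then lay on other chromosomes, as they did with the block over 20 libraries (34 on chromosome 1 and 62 elsewhere), with the 8 libraries fitted alone (27 and 61) and with replicates 2 and 4 only (9 and 23). As a share of its tested peaks, chromosome 1 held more calls than the rest of the genome with the block too (1.30% against 0.685%). The peaks called in both fits come first here, and those of the blocked fit after them.

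On chromosome 1 the called peaks kept to the part that holds Idh1. All but 1 lay between 33583271 and 77044479, that is from -31.6 to 11.9 Mb of the Idh1 start at 65186479. RefSeq gives Idh1 a further start at 65179142, 7337 bases away, which is the one whose sequence is shown, and distances are taken from the former. Within 35 Mb of that start, a distance chosen after the calls were seen, 23 of 3374 peaks were called (0.682%), against 1 of 5142 (0.0194%) on the rest of the chromosome. Peaks with an unadjusted p below 0.05 made up 8.80% within that distance, 4.67% on the rest of chromosome 1 and 4.98% on other chromosomes. Changes beyond 2-fold made up 0.83% within it and 0.136% on the rest of the chromosome. In 5 Mb bins the share with an unadjusted p below 0.05 reached 18.8% at 30 to 35 Mb below Idh1 (165 peaks), 16.3% at 15 to 20 Mb below (43 peaks) and 18.6% in the 5 Mb just above it (86 peaks). From 15 to 30 Mb above, the bins held 6.63%, 3.24% and 3.8%, and the next, from 30 to 35 Mb, 10.6% (9 of 85 peaks), with no called peak in these 4 bins. The 6 raised peaks all lay below Idh1, while lowered peaks lay on both sides. The mutant allele and any other difference carried on the same stretch of chromosome 1 were present in the same 4 libraries, so their parts cannot be told apart.

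**Figure D1:**
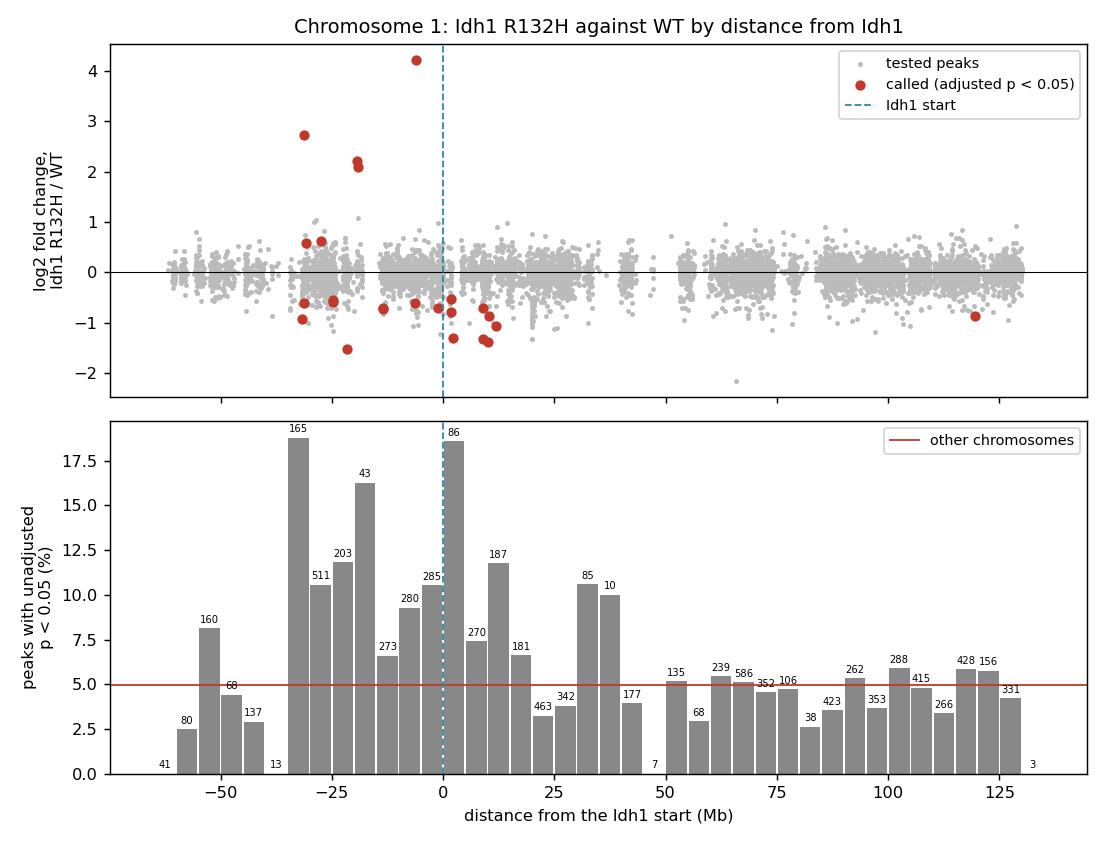
Top, log2 fold change of Idh1 R132H over WT for the 8516 tested peaks of chromosome 1 (vertical axis) against the distance from the Idh1 start in Mb (horizontal axis), with called peaks in red. Bottom, the percentage of peaks with an unadjusted p below 0.05 in bins of 5 Mb, with the number of peaks above each bar and the share on other chromosomes (4.98%) as a red line. The called peaks lie from -31.6 to 11.9 Mb of Idh1, except 1 at 119 Mb.

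The Idh1 gene itself showed no called difference. Its strong peak (chr1:65178060-65179449, intron class in the deposited annotation, and over the start at 65179142) stood at 67.5, 69.3, 65.2 and 78.0 CPM in WT replicates 1 to 4 and at 65.0, 71.8, 69.7 and 77.9 CPM in R132H replicates 1 to 4. The groups overlapped fully, at 70.0 ± 5.61 CPM in WT and 71.1 ± 5.35 CPM in R132H (SD, n = 4). The log2 fold change was 0.02 with a 95% interval of -0.12 to 0.16 (edgeR adjusted p = 1.0). The other Idh1 peak (chr1:65146501-65146801) was weak, at 0.263 ± 0.0841 CPM in WT and 0.292 ± 0.11 CPM in R132H (SD, n = 4). These peaks report the accessibility of the locus and not the recombination of the allele. The nearest called peak lay 1.10 Mb away, in an intron of Klf7, a Kruppel-like transcription factor gene.

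Gene names below mark the gene that holds a peak or the nearest one, not a gene shown to be controlled by it. Peak classes come from the deposited annotation, separately from these names, and can refer to another transcript. Sites that opened from a near-silent level lay in Dst, the cytoskeletal linker dystonin (transcription end class), and near Dnah7b, an axonemal dynein gene. The Dst peak (chr1:33925330-33925745) held 0.0759, 0.205, 0.591 and 0.492 CPM in WT and 2.37, 1.31, 2.96 and 1.63 CPM in R132H (log2 fold change 2.73 ± 0.33 SE, edgeR adjusted p = 2.55e-05). The Dnah7b peak (chr1:46022885-46023320) held 0.303, 0.286, 0.197 and 0.451 CPM in WT and 1.49, 0.512, 1.5 and 1.86 CPM in R132H (2.09 ± 0.32 SE, adjusted p = 0.0013). Both sites were faint in all WT pools and higher in each R132H pool, with R132H replicate 2 the lowest mutant pool at each and close to the highest WT pool at Dnah7b. At Dst the 3 reference genotypes were at the WT level (0.264 to 0.278 CPM), but at Dnah7b the R172K libraries (1.29 ± 0.317 CPM, SD, n = 4) were close to R132H in level. The raised promoter-class peak named for Slc40a1, the iron exporter ferroportin, went from 0.187 ± 0.104 to 0.828 ± 0.141 CPM (SD, n = 4, log2 fold change 2.21, adjusted p = 0.0131). Stronger sites that opened further lay beside the testis genes Tsga10 (chr1:37868705-37869022, 10.1, 9.86, 7.36 and 9.23 CPM in WT to 17.2, 12.2, 14.6 and 12.8 CPM in R132H, 0.63 on the log2 scale, adjusted p = 0.00498) and Prss39 (6.43 ± 0.256 to 9.56 ± 1.59 CPM, SD, n = 4, 0.58, adjusted p = 0.0239).

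Among the 18 lowered peaks of chromosome 1, the smallest p lay at a site nearest Lancl1, which encodes a glutathione-binding protein (chr1:66987493-66988279). WT libraries held 15.3, 12.8, 12.5 and 15.9 CPM and R132H libraries 9.18, 8.14, 8.0 and 7.43 CPM. All mutant pools lay well below all WT pools, with a log2 fold change of -0.79 ± 0.10 (SE, edgeR adjusted p = 2.55e-05). A pair of further lowered peaks lay close by on the same side of Idh1. The site nearest Cps1, the carbamoyl phosphate synthase of the urea cycle (chr1:67397824-67398450), held 3.30, 4.13, 2.83 and 3.77 CPM in WT and 1.13, 1.71, 1.69 and 1.22 CPM in R132H (-1.32 ± 0.17 SE, adjusted p = 3.88e-05). The site nearest Myl1, a muscle myosin light chain gene (chr1:66895055-66896916), held 18.2, 18.6, 16.3 and 18.3 CPM in WT and 12.4, 13.3, 11.9 and 12.1 CPM in R132H (-0.53 ± 0.08 SE, adjusted p = 0.0013). The groups were apart at both, and the spread within R132H was narrow at Myl1.

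Farther along, an intron of Tns1, the focal adhesion protein tensin, held 2 lowered peaks. The stronger (chr1:74055519-74056164) had 11.7, 10.4, 11.9 and 9.76 CPM in WT and 6.03, 6.21, 7.68 and 6.57 CPM in R132H (-0.72 ± 0.09 SE, adjusted p = 5.87e-05). The weaker (chr1:74074656-74075068) went from 1.80 ± 0.358 to 0.711 ± 0.20 CPM (SD, n = 4, adjusted p = 0.0131). At both sites every mutant pool lay below every WT pool.

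Cytokine receptor genes of the interleukin-1 receptor family stood beside 2 more. The peak in Il18r1, a subunit of the interleukin-18 receptor, fell from 10.2 ± 0.668 to 6.94 ± 0.508 CPM (SD, n = 4, adjusted p = 0.0115), and the one nearest Il1rl1, the interleukin-33 receptor, fell from 7.69 ± 0.92 to 5.18 ± 0.534 CPM (SD, n = 4, adjusted p = 0.0142). At Il18r1 the Tet2 knockout mean (6.61 CPM) was close to that of R132H. A peak of the transcription end class in Nck2, an SH2 and SH3 adaptor gene (chr1:43554100-43554700), held 2.05, 1.96, 1.51 and 2.22 CPM in WT and 0.603, 0.626, 0.709 and 0.77 CPM in R132H (-1.53 ± 0.25 SE, adjusted p = 0.00235). Nck2 was low in the Tet2 knockout too (0.711 ± 0.159 CPM) and lower in R172K (0.351 ± 0.0774 CPM), while R140Q (1.67 ± 0.776 CPM; SD, n = 4 for each) overlapped WT.

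Further lowered peaks of chromosome 1 fell by 0.61 to 1.38 on the log2 scale. They lay nearest Slc4a3, an anion exchanger gene (chr1:75565143-75566250, 5.43 to 2.92 CPM), the predicted gene Gm28802 (chr1:58897449-58898300, 8.97 to 5.91 CPM), Klf7 (4.54 to 2.77 CPM), the ephrin receptor Epha4 (3.02 to 1.46 CPM), the aminopeptidase Dnpep (1.87 to 0.694 CPM), the DNA primase subunit Prim2 (2.1 to 1.14 CPM) and, in the promoter class, Bend6, which encodes a BEN domain repressor (10.0 to 6.68 CPM). The call outside the 35 Mb lay nearest Hlx, a homeobox gene (chr1:184665227-184665816). It went from 3.26, 2.74, 2.50 and 2.38 CPM in WT to 1.63, 1.54, 1.62 and 1.13 CPM in R132H, with an adjusted p of 0.0491, at the edge of the threshold.

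**Figure D2:**
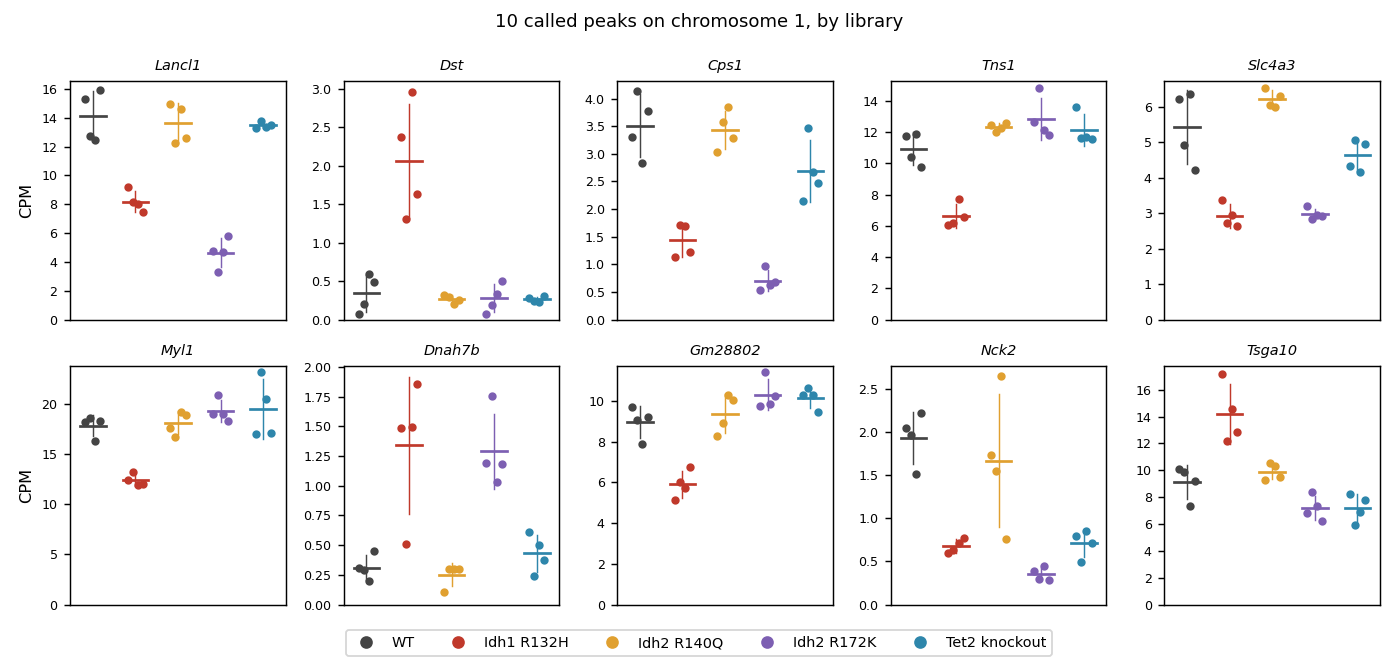
CPM (vertical axes, from 0) of 10 called chromosome 1 peaks, with a point per library, the mean as a bar and the SD as a line for WT, Idh1 R132H, Idh2 R140Q, Idh2 R172K and Tet2 knockout (4 libraries each). At Dst the 4 R132H libraries stand above all 16 others, and at Nck2 the R172K and Tet2 knockout libraries are low as well.

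The same peaks were read against the other mutants, whose sample labels name no Idh1 mutation. These contrasts share the R132H libraries with the comparison above and are no independent support. Of the 23 called peaks within 35 Mb of Idh1, 20 passed against R140Q in the same direction, 20 against the Tet2 knockout, 19 against both and 12 against R172K, while 7 passed against R172K in the opposite direction. At the 17 lowered ones the median level was 0.605 of WT in R132H, 1.01 in R140Q, 0.912 in the Tet2 knockout and 0.552 in R172K. At the 6 raised ones it was 4.37 times WT in R132H, 0.953 in R140Q, 0.968 in the Tet2 knockout and 0.95 in R172K. Over all peaks, R132H differed from R140Q at 51 (0.0412%), of which 25 lay within 35 Mb of Idh1, none on the rest of chromosome 1 and 26 elsewhere. Against the Tet2 knockout 4453 peaks were called (3.59%) and against R172K 61930 (50%).

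Away from chromosome 1 8 of the 10 called peaks were lowered, and the other genotypes were often low there too. None passed against R140Q by edgeR, although 7 had an unadjusted p below 0.05 in the same direction, and none passed against both R140Q and the Tet2 knockout by DESeq2 or limma-voom. Of the 10, 2 passed against the Tet2 knockout (Cryl1 and Edn3), and 7 of the 8 lowered peaks were lower still in R172K, with adjusted p below 0.05 for R132H against R172K. At the 8 lowered peaks the median level was 0.485 of WT in R132H, 0.697 in R140Q, 0.573 in the Tet2 knockout and 0.128 in R172K. At all 10 the R140Q mean lay between the WT and the R132H means. These peaks were picked for a wide gap between WT and R132H, and every ratio uses the same WT libraries. A level of another genotype inside that gap is thus expected in part from the choice and is no independent support.

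The smallest p lay in an intron of Epb41l3, a membrane skeleton protein gene (chr17:69288144-69288488). It held 2.24, 1.88, 2.50 and 1.97 CPM in WT and 0.922, 0.74, 0.985 and 0.725 CPM in R132H. All 4 mutant pools were below 1 CPM and all WT pools above 1.8, with a log2 fold change of -1.31 ± 0.22 (SE, edgeR adjusted p = 0.00498). The Tet2 knockout (0.702 ± 0.241 CPM) and R172K (0.868 ± 0.264 CPM; SD, n = 4) stood at the R132H level. The peak nearest Itga3, the integrin alpha-3 gene (chr11:95082644-95083276), held 12.4, 8.76, 10.2 and 11.4 CPM in WT and 8.44, 6.49, 6.11 and 5.98 CPM in R132H (-0.66 ± 0.12 SE, adjusted p = 0.013). R132H replicate 1 came close to WT replicate 2 there, and R172K was nearly closed at 0.777 ± 0.0897 CPM (SD, n = 4).

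The strongest fall outside chromosome 1 lay in an intron of Cryl1, which encodes lambda-crystallin, a dehydrogenase of sugar metabolism (chr14:57344824-57345490). WT held 2.05, 2.46, 2.37 and 2.99 CPM and R132H 0.603, 1.08, 1.14 and 0.951 CPM (-1.41 ± 0.25 SE, adjusted p = 0.0142). No R132H pool reached the lowest WT pool, while the R140Q pools spread over both groups (1.56 ± 0.859 CPM, SD, n = 4). Lowered peaks also lay in an exon of Afap1, an actin filament binding protein gene (chr5:35993460-35993884, 2.32 ± 0.229 to 1.12 ± 0.222 CPM, adjusted p = 0.0149), near the Kelch gene Kbtbd11 (chr8:15036314-15037077, 7.46 ± 0.593 to 4.76 ± 0.40 CPM, adjusted p = 0.0281) and in Ccdc88c, whose product binds Dishevelled in Wnt signalling (chr12:100924801-100925465, 3.88 ± 0.214 to 2.35 ± 0.207 CPM, adjusted p = 0.0385; SD, n = 4). At Kbtbd11 and Ccdc88c the Tet2 knockout means, 4.87 and 2.34 CPM, nearly equalled those of R132H.

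The last 2 lowered peaks lay on chromosome 2. The one nearest Edn3, the vasoactive peptide endothelin 3 (chr2:174880612-174881008), held 1.74, 1.76, 2.56 and 2.30 CPM in WT and 1.03, 1.02, 1.02 and 0.997 CPM in R132H (-1.01 ± 0.20 SE, adjusted p = 0.0469). The mutant pools hardly differed from one another there, on 18 to 29 counts each. The peak in an intron of Ifih1, the cytosolic RNA sensor MDA5 (chr2:62606185-62606837), held 2.20, 2.05, 2.56 and 2.38 CPM in WT and 1.49, 0.854, 1.02 and 0.997 CPM in R132H (-1.02 ± 0.21 SE, adjusted p = 0.0491). It was the only called peak of any gene list used here.

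The raised peaks outside chromosome 1 were both of the promoter class. The peak at Ifi27, an interferon-induced gene (chr12:103433916-103434706), rose from 7.59, 9.04, 9.0 and 8.78 CPM in WT to 11.3, 13.4, 10.7 and 13.8 CPM in R132H (0.52 ± 0.10 SE, adjusted p = 0.0404). The peak at Med13l (chr5:118559725-118560499), whose upstream sequence is given above, rose from 21.3, 23.1, 21.9 and 22.3 CPM to 28.6, 29.4, 26.1 and 32.0 CPM (0.39 ± 0.08 SE, adjusted p = 0.0411). The WT pools lay close together at both, and the 4 mutant pools stood above them. At Med13l the R140Q, R172K and Tet2 knockout means (25.8, 26.7 and 26.6 CPM) lay between WT and R132H. With library size alone or with cyclic loess as the scaling, neither of these rises was called. The 5 peaks just past the threshold on any chromosome included one in Jak2, the cytokine receptor kinase (3.52 ± 0.833 to 1.94 ± 0.277 CPM, SD, n = 4, adjusted p = 0.0645). Others lay in Eid3 (adjusted p = 0.0574) and, raised on chromosome 1, in Ap1s3, 14.5 Mb above the Idh1 start (edgeR adjusted p = 0.059).

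**Figure D3:**
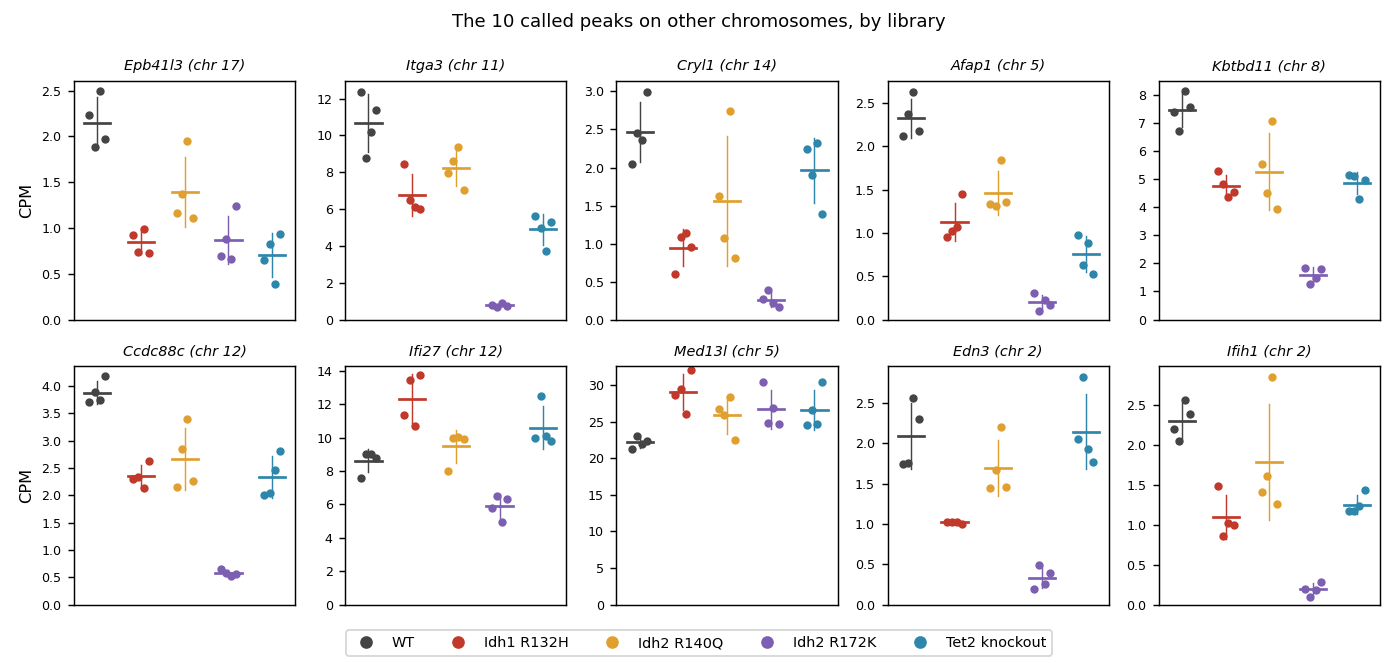
CPM (vertical axes, from 0) of the 10 called peaks outside chromosome 1 in every library of the 5 genotypes, with the mean as a bar and the SD as a line (4 libraries each). R140Q lies between WT and R132H at each, and R172K is lowest at 7 of the 8 peaks that fell.

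Peaks of blood and metabolic genes chosen for the study's theme showed small differences. For 25 genes the strongest promoter-class peak was read (20 genes), or the strongest peak where there was none, and no peak was called without the block. With the block 3 of the 25 were called, those of Mpo, Ikzf1 and Kdm7a. All 25 intervals of the fit with no block lay within 2-fold of no change and 23 within 1.5-fold, and 18 of 25 log2 fold changes were above 0, the highest 0.31 at Mpo (20.2 ± 2.93 and 25.4 ± 5.02 CPM; SD, n = 4). The median was 0.0337 over all promoter-class peaks and 0.0459 over those in the strongest quintile. A majority above 0 was thus not particular to these genes. At 3 genes the interval excluded 0 without adjustment: Tet2 (0.14, 95% interval 0.01 to 0.28), the lymphoid factor Ikzf1 (0.17, 0.04 to 0.30) and Kdm7a (0.17, 0.03 to 0.31). At the stem cell factors Meis1 (0.00, -0.12 to 0.12), Hoxa9 (0.03, -0.10 to 0.16) and Mecom (0.01, -0.11 to 0.13), at Runx1 (0.04, -0.09 to 0.16) and at D2hgdh (0.02, -0.10 to 0.14) the intervals were narrow and included 0.

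The promoter class is that of the deposited annotation, and such a peak need not lie at the start of the gene it is named for. Of the 25 peaks 14 covered a RefSeq start of their own gene and 9 did not, 7 of them more than 1000 bases away, among them the peaks of Idh2, Kit, Flt3 and Hoxa9, while starts of Myc and Spi1 were not used here. Some peaks over a start are in the intron or exon class. Peaks over their own start, looked up after the values were seen, were found for 20 genes, and none was called without the block. The receptor Kit had 64.8 ± 2.73 CPM there in WT and 68.3 ± 3.73 CPM in R132H (SD, n = 4, log2 fold change 0.07, 95% interval -0.05 to 0.20). The receptor Flt3 had 77.7 ± 3.99 and 78.0 ± 6.30 CPM (0.01, -0.20 to 0.22), and Idh2 50.2 ± 2.59 and 50.7 ± 2.54 CPM (0.01, -0.10 to 0.13; SD, n = 4). At these 3 strong sites the groups overlapped.

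**Figure D4:**
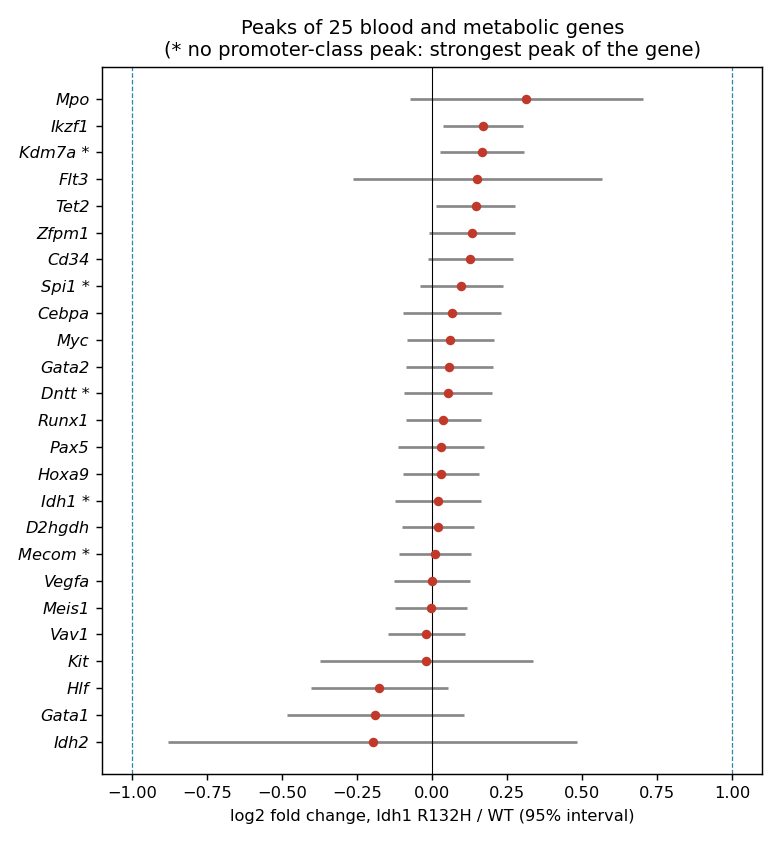
Log2 fold change of Idh1 R132H over WT (horizontal axis) with its 95% interval at 1 peak of each of 25 blood and metabolic genes, in order of size. Dashed lines mark 2-fold; all 25 intervals lie inside them, from -0.20 at the Idh2 peak, which lies away from the Idh2 start, to 0.31 at Mpo.

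Across 19 gene lists (243 genes, 230 of them with a peak, 2759 peaks), 1 peak was called, the Ifih1 peak of the interferon list. List medians ran from -0.06 (B cell) to 0.04 (interferon response) on the log2 scale, beside -0.000806 over all peaks. At an unadjusted p below 0.05, which 2.03% of all peaks met upward and 3.04% downward, the 393 peaks of 19 hematopoietic stem cell genes held 2 higher and 27 lower. The 284 peaks of 27 dioxygenase genes held 10 higher and 9 lower, the 60 B cell peaks 2 and 6, and the 120 hypoxia target peaks 0 and 2. The peak of smallest p in the stem cell list lay in Mecom (chr3:30108240-30108725, 1.11 ± 0.336 to 0.473 ± 0.158 CPM, -1.22, adjusted p = 0.224), in the progenitor list near Runx1 (-0.61, adjusted p = 0.16) and in the dioxygenase list near Hif1an, the asparaginyl hydroxylase that inhibits Hif1a (5.46 ± 0.822 to 3.62 ± 0.505 CPM, -0.57, adjusted p = 0.136; SD, n = 4). Others were Bcl11b (T and NK cell, -0.92), Pax5 (B cell, -0.58), Col1a2 (stroma, -0.86), Tnfaip3 (NF-kB, -0.72), Slc2a1 (hypoxia, -0.74), Tfrc (erythroid, -0.36), Cdk6 (cell cycle, 0.57), Cd9 (megakaryocyte, 0.40), Itgam (myeloid, 0.34), Hdc (mast cell, 0.31), Plk2 (p53, 0.29), Glud1 (2-oxoglutarate metabolism, 0.21), Mbd2 (DNA methylation, 0.19) and Ikzf1 (lymphoid priming, 0.17), all with adjusted p from 0.275 to 0.907.

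Direction went with the strength of a peak, and within the strongest quintile the size of the imbalance went with its class too. Which of them mattered more was not tested. At an unadjusted p below 0.05, 4.20% of peaks in the strongest quintile were higher and 0.775% lower in R132H, and in the weakest quintile 1.39% and 3.91%. By class, 4.48% of promoter-class peaks were higher and 1.86% lower, whereas 1.68% of intron peaks were higher and 3.19% lower, and 1.54% and 3.25% of intergenic peaks. Within the strongest quintile every class held more higher than lower peaks, with 619 and 33 in the promoter class, 124 and 10 in exons, 177 and 80 in introns and 98 and 59 between genes. In the other 4 quintiles together every class held more lower ones, with 79 higher and 256 lower in the promoter class, 60 and 210 in exons, 691 and 1572 in introns and 591 and 1390 between genes. Most promoter-class peaks (9404 of 15572) were in the strongest quintile. Median log2 fold changes stayed small, from -0.06 in the weakest quintile to 0.03 in the strongest. The share of counts in promoter-class peaks moved the same way, from 40.6 to 41.8% in the WT libraries and from 41.2 to 43.1% in the R132H libraries, and its part in this was not tested. The balance depended on the scaling: outside chromosome 1, 2313 peaks were higher and 3432 lower with TMM, 1510 and 4159 with library size alone, and 2333 and 2913 with cyclic loess.

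The replicate block added calls. Libraries with the same number in both genotypes deviated together, but WT replicate 3 did so more with R132H replicate 1 than with replicate 3 (correlations 0.144 and 0.116). The blocked fit compares each R132H pool with the WT pool of its number. On chromosome 1 it called 107 of 8261 peaks (1.30%), of which 89 lay within 35 Mb of Idh1 (2.74% of 3250) and 18 on the rest (0.359%). On the other chromosomes it called 772 (0.685%), 379 raised and 393 lowered. With library size alone the latter split was 293 raised and 536 lowered, and with cyclic loess 207 and 343. Without the replicate 4 pair the calls outside chromosome 1 dropped to 165, and the DESeq2 Wald test with the same block called 39. Only 50 peaks were called by edgeR under all 3 scalings, limma-voom and DESeq2 together, 11 near Idh1 and 39 on other chromosomes, and 24 of the 39 were promoter-class peaks.

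In the blocked fit too, calls outside chromosome 1 were mostly raised among strong peaks and mostly lowered among weaker ones. The strongest quintile held 330 raised and 59 lowered, and the others, from the weakest up, 3 and 34, 9 and 56, 13 and 118, and 24 and 126. These balances kept their direction with library size alone, with cyclic loess and without the replicate 4 pair. By class, promoter-class peaks rose at 228 and fell at 31 of 14361. The raised ones numbered 109 with cyclic loess, 72 without the replicate 1 pair, 32 without the replicate 4 pair and 21 with DESeq2. They numbered 192 with library size alone, 428 with limma-voom, and 231 and 156 without the replicate 2 and 3 pairs. Intron peaks rose at 64 and fell at 175 of 47042, and intergenic peaks rose at 31 and fell at 133 of 40474. Exon peaks rose at 50 and fell at 31, a balance that flipped with library size (35 and 42) and cyclic loess (23 and 30). Within the strongest quintile the promoter class held 223 raised and 9 lowered, exons 48 and 5, introns 40 and 24, and intergenic peaks 13 and 19. Outside that quintile the promoter class held 5 raised and 22 lowered, exons 2 and 26, introns 24 and 151, and intergenic peaks 18 and 114. The promoter-class changes were small: the median absolute log2 fold change of called promoter-class peaks was 0.21, against 0.55 for called intergenic peaks.

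**Figure D5:**
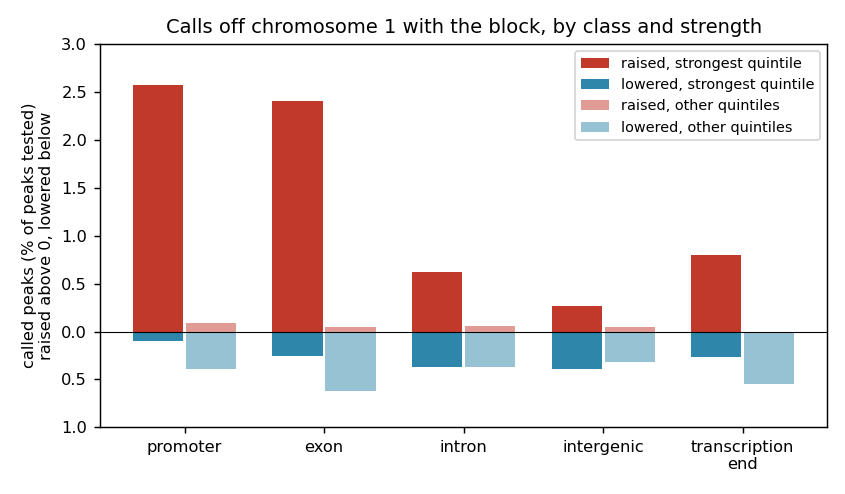
Percentage of tested peaks outside chromosome 1 that were called with the replicate number as a block (vertical axis, raised above 0 and lowered below), by peak class (horizontal axis), for the strongest quintile of peaks (dark) and the other quintiles together (light). Raised calls stand out in the strongest promoter-class (223 against 9 lowered) and exon peaks (48 against 5), while calls in the other quintiles of every class were mostly lowered.

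The promoter-class peaks raised with the smallest p in the blocked fit, named after their values were seen, included those of Spen, a corepressor that binds Xist RNA, Med13l, Pknox1, a homeobox factor gene, Rybp, a Polycomb subunit, and Gnb1, a G protein beta subunit. Spen (chr4:141537799-141539159) held 46.7, 49.3, 42.0 and 52.8 CPM in WT and 59.1, 58.6, 56.0 and 66.1 CPM in R132H (0.33 ± 0.04 SE with the block, adjusted p = 3.46e-07). All mutant pools lay above all WT pools there. The Pknox1 peak went from 105 ± 11.4 to 128 ± 15.6 CPM, Rybp from 46.3 ± 5.39 to 57.7 ± 7.27 CPM and Gnb1 from 18.9 ± 1.65 to 24.8 ± 1.29 CPM (SD, n = 4).

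The strongest lowered peaks included the promoter class at Unc5cl (chr17:48462114-48462614, 3.85 ± 0.499 to 1.40 ± 0.378 CPM, -1.44 with the block, adjusted p = 7.96e-11) and at Mex3a, an RNA-binding protein gene (5.53 ± 1.68 to 2.76 ± 0.584 CPM, -1.01), and an intron of Trio, a guanine nucleotide exchange factor (chr15:27882823-27883275, 4.92 ± 0.614 to 2.31 ± 0.202 CPM, -1.07, adjusted p = 5.95e-09; SD, n = 4). The Trio peak held 5.08, 4.54, 5.72 and 4.35 CPM in WT and 2.59, 2.11, 2.25 and 2.31 CPM in R132H, a gap wider than either group's range. The others lay on the sex chromosomes: 2 peaks near Mid1 on X (12.5 ± 2.31 to 6.89 ± 1.01 and 8.17 ± 1.75 to 4.69 ± 0.591 CPM) and 1 on Y (10.8 ± 5.14 to 6.25 ± 1.78 CPM; SD, n = 4). Of 26 tested Y peaks, 6 were called with the block, all lowered. The summed CPM over all peaks of chromosome Y, which includes these peaks, stood at 155 to 302 in WT and 141 to 161 in R132H. In WT this sum was higher in replicates 2 and 4 (242 and 302), the pools with high Xist, than in 1 and 3 (219 and 155). Its part in these calls was not tested.

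Several list genes passed only with the block. Raised were the promoter-class peaks of Mpo (18.1, 22, 17.5 and 23.5 CPM in WT against 19.7, 27.6, 23.3 and 31.2 CPM in R132H, 0.32 ± 0.06 SE, adjusted p = 0.000244), of Glud1, the glutamate dehydrogenase that makes 2-oxoglutarate (86.7 ± 8.57 to 100.2 ± 9.55 CPM, 0.21), of Ccne1, cyclin E1 (0.18), of the methyl-CpG binding gene Mbd2 (0.19) and of Ikzf1 (0.18). Unpaired, the Mpo pools of the genotypes overlapped, and it is within numbers that each mutant pool was higher. Among the dioxygenases, peaks at Kdm7a (0.17) and Egln1, the oxygen-sensing prolyl hydroxylase (0.21), rose and the peak near Hif1an fell (-0.59, adjusted p = 0.000557), 3 of 277 peaks (1.08%). Of 383 stem cell list peaks 4 fell (1.04%) and none rose, among them intron peaks of Mecom (-1.23), Hlf (-0.54) and Mllt3 (-0.88). A peak near Runx1 fell as well (3.58 ± 0.195 to 2.31 ± 0.33 CPM, -0.62, adjusted p = 0.00529), with every mutant pool below every WT pool. Cdk6, the cell cycle kinase, held 2 raised peaks (0.24 and 0.57), and 1 intergenic peak 147239 bases from the gene was lowered (-0.56). Single peaks near Tnfaip3 (-0.74), Bcl11b (-0.96), Pax5 (-0.58), Tfrc (-0.35), Col1a2 (-0.86) and Hoxa5 (-0.48) fell. None of these list peaks was called by DESeq2 with the block. Of the 9 raised list peaks 4 were called with cyclic loess, not among them Kdm7a, Egln1, Ikzf1, Mbd2 and Ccne1, and 4 without the replicate 1 pair, again without Kdm7a, Egln1, Ikzf1 and Mbd2. Without the replicate 4 pair 0 of the 9 were called. Of the 14 lowered ones 11 were called with cyclic loess, 6 without the replicate 1 pair and 3 without the replicate 4 pair (Ifih1, Hif1an and the peak near Runx1). The shares of 1.08% and 1.04% compare with 0.727% over all peaks in that fit.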

How the data were processed

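One table of counts per peak, for 1 peak set and all 20 libraries, and 1 peak annotation were used, both deposited by the authors. The submitters' processing notes name build mm10 and, in no stated order, featureCounts, MACS2, SAMtools, Picard, BWA and Trim Galore. Versions and any shift of reads to the insertion site: not given in the sources used here. Columns were tied to samples by genotype and number. The column names of the R140Q libraries carry the gene name IDH1. They were taken as the Idh2 R140Q samples because no other genotype carries R140Q, and every R140Q comparison rests on this.

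Counts were tested with edgeR 4.0.16 (R 4.3.3). Scaling was by TMM, filterByExpr by genotype removed 1435 peaks, and a robust quasi-likelihood model had 1 mean per genotype over 20 libraries. Tests were 2-sided, with Benjamini-Hochberg adjustment over all tested peaks and a threshold of 0.05. The common biological coefficient of variation was 7.73%. CPM used TMM-scaled library sizes. A peak was named for the RefSeq protein-coding gene (GRCm38.p6) that held its centre, otherwise for the nearest. No 2 libraries of a genotype were alike within sampling noise (chi-square per peak 1.48 to 2.47). The steps were tested on simulated data, with a shared effect of the number and a reduced spread built into the blocked case. That case therefore cannot show whether the numbers are pairs in the real libraries.

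Deviations of same-numbered WT and R132H libraries from their genotype means correlated at 0.247, 0.196, 0.116 and 0.269 over all peaks (0.209, 0.164, 0.0815 and 0.232 on autosomes). Libraries of unlike number correlated at -0.242 to 0.144. The highest of these, WT 3 with R132H 1 (0.112 on autosomes), was above the value of number 3 itself, so pairing by number was borne out only in part. The numbers were treated as pairs in a second fit of the 8 libraries with the number as a block. The leading calls and adjusted p values come from the fit with no block, and blocked values are named as such; what a number shares is not stated in the labels. Other scalings, limma-voom (limma 3.58.1), DESeq2 1.42.0 and reduced sets of libraries were alternatives.

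Named were the first 12 peaks by p on chromosome 1, all called elsewhere, the Idh1 peaks, 1 peak of each of 25 genes and the peak of smallest p in each of 19 lists. The other called peaks and the list peaks called with the block were added, and the strongest block peaks after their values were seen. Some peaks that this rule takes are counted but not reported here. Members and lists were chosen with earlier results of these data known.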

Additional observations from a re-analysis of the deposited data

Results flagged for a closer look

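In all, 7 of 120 groups of 4 libraries held a library that stood apart relative to the spread of the other 3, where chance flags about 1 in 20 groups. Such a gap can be small in itself, as at Edn3 and D2hgdh. WT replicate 3, the shallowest WT library, was the low one at the peaks of Myl1 (16.3 CPM, others 18.2 to 18.6), Vegfa (45.8 CPM, others 54.9 to 56.2) and Pax5 (22.9 CPM, others 26.3 to 26.8). WT replicate 2 was high at D2hgdh (45.4 CPM, others 43.0 to 43.4). In R132H, replicate 4 was high at the Tet2 peak (62.4 CPM, others 52.4 to 53.6) and low at Edn3 (0.997 CPM, others 1.02 to 1.03), and replicate 2 was low at Pax5 (24.5 CPM, others 26.6 to 27.0).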

How the results depend on the processing

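The 24 calls on chromosome 1, the 10 elsewhere and the 19 that also passed against R140Q and the Tet2 knockout were recomputed under 21 other settings, and 0 called values changed sign. Leaving out 1 library at a time gave 14 to 23 calls on chromosome 1, 4 to 8 elsewhere and 13 to 19 passing both. Of the 34 called peaks, 7 were called under all 21 settings (among them Dst, Nck2, Myl1, Lancl1, Cps1 and the stronger Tns1 peak), and 12 whichever library was left out, Epb41l3 being the only one of these outside chromosome 1. The 21 settings do not include the alternatives of the blocked fit given below. Calls outside chromosome 1 rose to 61 with the 8 libraries fitted alone, 21 with replicates 1 and 3 only and 23 with replicates 2 and 4 only, and were 6 without the Idh2 R172K libraries (chosen after seeing the data). Replicates 2 and 4 only gave 9 on chromosome 1. The cause of these shifts was not tested.

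With the replicate block, the 8 libraries gave 107 calls on chromosome 1 and 772 elsewhere, and the 20 libraries 34 and 62. In the block of 20 libraries a number did not mark the same Xist level in the Tet2 knockout as in the other genotypes. Alternatives of the blocked fit were chosen after seeing the data: library size alone gave 117 and 829, cyclic loess 93 and 550, limma-voom 161 and 1366, and DESeq2 11 and 39. Without the replicate 1, 2, 3 or 4 pair it gave 61, 91, 80 and 46 on chromosome 1 and 408, 566, 525 and 165 elsewhere. Of 897 values of 43 uncalled named peaks, 16 crossed the threshold, all with the block, and 44 changed sign. A fit of the difference in effect between numbers 1 and 3 and numbers 2 and 4 called 2 of 120882 peaks, both on chromosome 17. Changes well under 2-fold at weak peaks were often below what this depth could show.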
